A study of Danio rerio with 12 samples.

Results

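The genes described here are 60 zebrafish genes of the cell cycle and of DNA replication, split here into G1, replication and mitosis. The split is coarse, since the mitosis set also holds the S and G2 cyclin gene ccna2, the chromatin gene hmgb2a and the nuclear import gene kpna2. The 60 genes were listed by name, with earlier results of these data known. A gene counted as present where a probe set of the array carried its symbol and no other, and the probe set with the highest mean retina signal stood for it. By that rule 52 of the 60 were present, among 8793 genes named on the array in all. They were 3 of 4 G1 genes, 34 of 38 replication genes and 15 of 18 mitosis genes. The 8 genes that no probe set named were ccne2, rfc2, prim2, rrm2, chaf1a, aurkb, bub1 and ube2c, and they were not analysed here.

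A cell that commits to division makes D-type cyclins in G1, licenses its replication origins with the MCM helicase, copies its DNA with polymerases held on the strand by the PCNA clamp, and then separates the copies in mitosis under cyclin B and Cdk1. Many of these transcripts are made only in cycling cells, through E2F factors around S phase and through later regulators towards mitosis. In the adult zebrafish retina, the ciliary margin and the rod precursors divide in intact tissue, and Müller glia re-enter the cell cycle after injury and give rise to neuronal progenitors.

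Total RNA from adult zebrafish was hybridised to 12 Affymetrix arrays. There were 5 arrays of lesioned and 5 of control retina, 1 of each at 2, 3, 5, 7 and 14 days post-lesion. Of the others, 1 was of brain and 1 of retina that the labels call a "true" control. Per the design text, animals were matched, with 8 or more for each condition. The sources used here give neither the strain, the age or the way the lesion was made, nor how many animals stand behind an array. Separate animals are not stated for separate arrays, so the p-values describe array-to-array spread, some of which can be technical. They cannot be read as spread between animals. Where arrays are paired by day, that spread also holds any real difference in the lesion change between days.

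Values are signal intensities scaled to the same trimmed mean on every array (500.1), with a median signal of 133.7 to 205.1. Precision is limited by the number of arrays, since each tissue and day has 1. The hybridization control probe sets put the arrays in 2 blocks of 6, and both arrays of a day lay in the same block. Days 3, 5 and 7 formed one block (mean control signal 5632.1 to 8980.9), and brain, the true control and days 2 and 14 formed the other (3314.7 to 4051.7). The GAPDH 5'/3' signal ratio, a measure of RNA integrity, was 0.103 to 0.245 on days 3, 5 and 7 and 0.692 to 0.854 in the other block. On 5 of 5 days the lesioned array had the lower ratio of the pair. Ratios of lesioned over control retina are given within a day, because both arrays of a day share a block. Such ratios still hold the GAPDH difference between those arrays. The tissue labels were checked with marker genes. Lower in brain than in intact retina were 9 of 9 rod genes and 14 of 14 cone genes on the array. Of 23 brain regional genes on the array, 22 were higher in brain, against 8852 of all 15502 probe sets.

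The first comparison asked which of these genes changed after the lesion, over the 5 days, with lesioned and control arrays paired by day. In lesioned retinas 12 genes rose and 0 fell, of the 32 that were bright enough to be tested. Those 12 were the G1 cyclin gene ccnd1; the helicase genes mcm2 and mcm3; the clamp gene pcna; the flap endonuclease gene fen1; the ribonucleotide reductase genes rrm1 and rrm2l; the chromatin gene uhrf1; and the mitosis genes cks1b, birc5a, smc4 and kpna2. Their mean log2 changes lay between 0.43 and 1.46, on the log2(signal + 50) scale used for every fold change here, which understates changes of dim genes. Over all 9301 probe sets tested with limma, 3.62% rose and 0.548% fell at an adjusted p under 0.05. At an unadjusted p under 0.05, 20 of the 32 genes were higher and 0 lower, against 10.5% higher and 7.57% lower of all probe sets tested. The brightness filter averaged lesioned and control arrays, so a gene dim in control retinas could be tested because its lesioned arrays were high. The tested genes uhrf1, mcm3 and cks1b had lower control means (81.6, 87.2 and 92.8) than aurka (108.1), which was left out. Counts out of the 32 are therefore a description. The median log2 change of the 52 genes was 0.40 and that of all probe sets was 0.01. Of the 52 changes, 49 were above 0, against 8176 of all 15502 probe sets. In whole-tissue RNA, more cycling cells and more RNA per cell cannot be told apart.

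**Figure D1:**
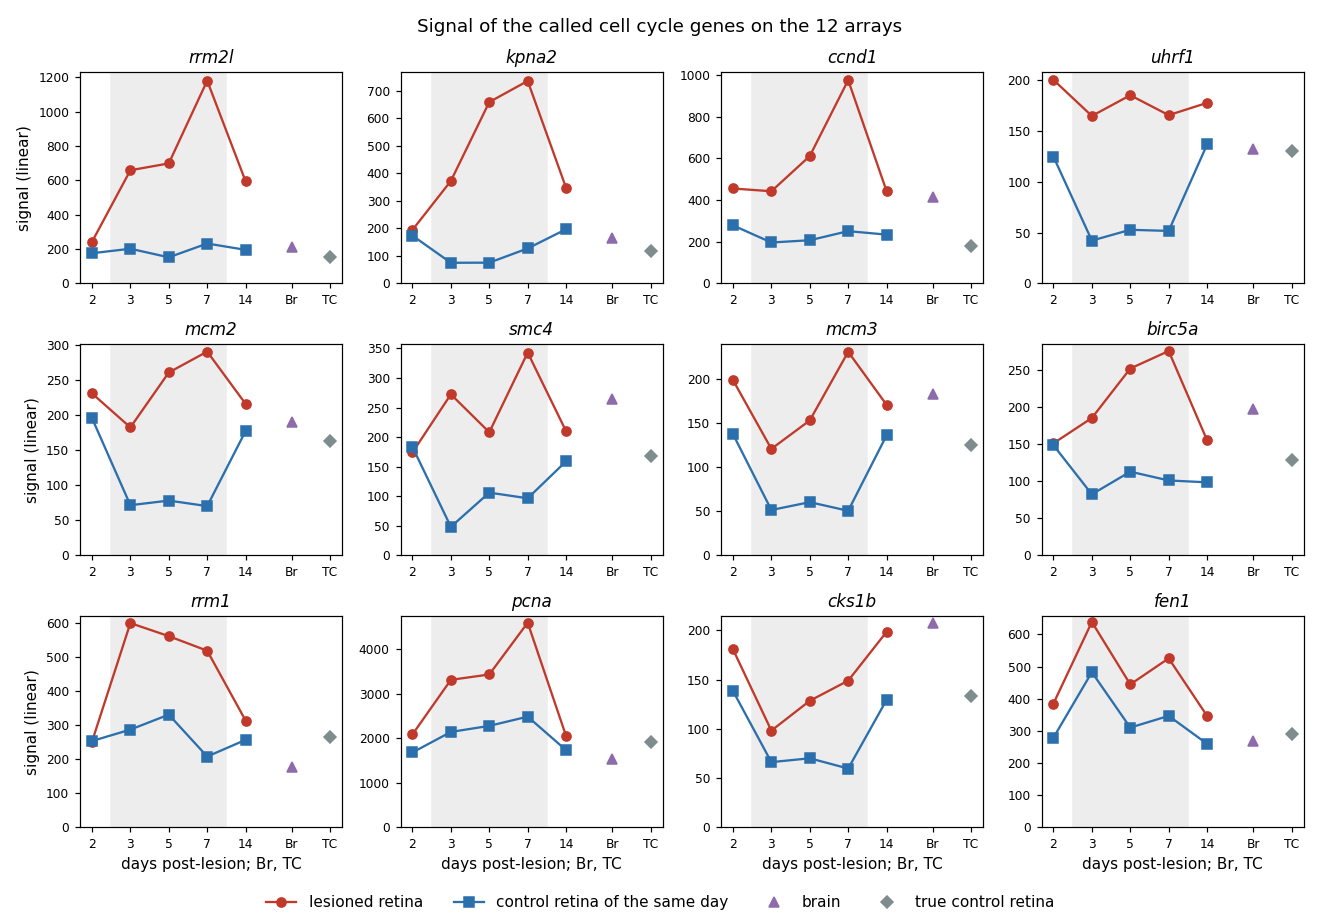
Signal of each of the 12 called genes on every array, with lesioned retinas (circles) and control retinas (squares) against days post-lesion, spaced evenly, and brain (Br) and the true control retina (TC) at the right of each panel. The y axes are signal intensities and differ between panels, and grey shading marks the block of days 3, 5 and 7. The lesioned arrays of ccnd1 (442.0 to 975.5) lay above its control arrays (196.0 to 278.2) on each day.

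Among the G1 genes, ccnd1, which encodes the cyclin that activates Cdk4 and Cdk6, had signals of 455.3, 442.0, 611.0, 975.5 and 442.4 in lesioned retinas on days 2, 3, 5, 7 and 14, against 278.2, 196.0, 206.8, 250.5 and 233.8 in control retinas. Every lesioned array was above every control array, and day 7 was the highest. The mean was 585.2 ± 229.5 in lesioned and 233.1 ± 33.2 in control retinas (SD over the 5 days, n = 5 arrays each). The log2 change was 1.11 ± 0.15 (SE; limma, adjusted p = 0.000697). A second probe set of ccnd1 gave a log2 change of 0.74 (limma, adjusted p = 0.00952). The other G1 genes on the array, cyclin E1 (ccne1) and its kinase (cdk2), were below the filter of the 5-day fit. Signal of cdk2 was 87.6 to 145.2 in lesioned retinas, with a median of 116.4, and 28.2 to 67.0 in control retinas, with a median of 50.6. The lesioned and control arrays of cdk2 did not overlap, while those of ccne1 did, at 63.3 to 130.7 in lesioned and 39.9 to 69.3 in control retinas.

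Origin licensing and unwinding was represented by 12 genes on the array, of which 4 were tested. The MCM proteins form the ring that is loaded at origins and unwinds DNA as the core of the replicative helicase. Of its members, mcm2 had signals of 231.0, 182.5, 260.8, 290.6 and 216.0 in lesioned retinas on days 2, 3, 5, 7 and 14, against 195.8, 71.5, 78.1, 70.2 and 177.3 in control retinas. Lesioned arrays were higher on 5 of 5 days, but the spread of the groups overlapped, since the control arrays of days 3, 5 and 7 were far below those of days 2 and 14. The log2 change of mcm2 was 0.83 ± 0.18 (SE; limma, adjusted p = 0.0166). For mcm3 the signals were 198.8, 120.7, 153.0, 230.8 and 170.7 in lesioned retinas, against 137.5, 51.4, 60.3, 50.5 and 136.1 in control retinas, with a log2 change of 0.75 ± 0.16 (SE; limma, adjusted p = 0.0157). The same drop on days 3, 5 and 7 was present in its control arrays, and its second, dimmer probe set gave 0.15 and was not tested. The other 2 tested genes were mcm7, with log2 ratios of 0.03, 0.51, 0.73, 0.92 and 0.16 on the 5 days and a change of 0.47 ± 0.13 (SE; limma, adjusted p = 0.0619), and the MCM loader gene cdt1, with 0.12 ± 0.12 (SE; limma, adjusted p = 0.664).

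The remaining 8 licensing and helicase genes were below the filter on dim probe sets. These were mcm4, mcm5, mcm6, the loader gene cdc6, the licensing inhibitor gene gmnn, and cdc45, gins1 and gins2, whose products join the MCM ring in the active helicase. The clearest separation was for mcm5, chosen here after its values were seen. It had signals of 156.1, 62.8, 169.4, 177.9 and 166.0 in lesioned retinas, against 29.1, 2.7, 31.3, 40.5 and 32.9 in control retinas. Even its lowest lesioned array was above its highest control array. Of its 5 control signals 4 were below the lower quartile of their array, so the added 50 sets much of its ratio. In a limma fit without the filter, over 15502 probe sets of which 1.72% rose, mcm5 had a log2 change of 1.33 (adjusted p = 0.000372) and mcm4 one of 0.79 (adjusted p = 0.0143). By contrast, mcm6 had 0.14 (adjusted p = 0.70) and gins1 had 0.05 (adjusted p = 0.896) in that fit. Signals of gins1 were 7.1 to 16.7 in lesioned and 3.2 to 11.7 in control retinas, near the bottom of the scale on every array.

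Of the clamp, its loader and the single-strand binding proteins, all 8 genes on the array were tested and 1 rose (background 3.62% of 9301 probe sets). The sliding clamp gene pcna had signals of 2087.7, 3313.2, 3434.1, 4597.7 and 2050.6 in lesioned retinas on days 2, 3, 5, 7 and 14, against 1682.3, 2143.0, 2279.4, 2486.7 and 1733.6 in control retinas. It was higher on 5 of 5 days, and the 3 middle days were the highest in both groups. The log2 change was 0.52 ± 0.11 (SE; limma, adjusted p = 0.0124). The largest change among the genes not called was that of rpa2, a subunit of the single-strand binding protein, with log2 ratios of 0.31, 1.02, 0.75, 0.41 and -0.14 on the 5 days. Its mean was 0.47 ± 0.14 (SE; limma, adjusted p = 0.0854), and its ratio was above 0 on each day but day 14. The loader genes rfc3, rfc4 and rfc5 had log2 changes of 0.33, 0.32 and 0.13, and rpa3 had 0.07. The large loader subunit gene rfc1 was at -0.15 ± 0.10 (SE; limma, adjusted p = 0.457), with the lesioned array below the control array on 5 of 5 days, and rpa1 was at -0.03.

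Of the polymerase, primase and strand-joining genes, fen1 rose, and the other 6 tested did not pass the test. The product of fen1 removes the RNA-primed flaps of the lagging strand before DNA ligase I seals it. Signals of fen1 were 385.0, 638.6, 444.5, 525.5 and 346.5 in lesioned retinas, against 278.8, 482.4, 310.2, 346.6 and 259.7 in control retinas. The groups overlapped across days, while the log2 ratio hardly varied between days (mean 0.43, SD 0.07, n = 5). Its change was 0.43 ± 0.10 (SE; limma, adjusted p = 0.0237). The ligase gene lig1 had signals of 223.3 to 268.3 in lesioned retinas (median 253.5) and 146.7 to 200.9 in control retinas (median 183.4), without overlap. Its log2 ratios were 0.25, 0.38, 0.40, 0.63 and 0.12 on the 5 days, with a mean of 0.36 ± 0.11 (SE; limma, adjusted p = 0.0943). The polymerase genes pola1, pola2, pold1, pold2 and pole2 had log2 changes between 0.04 and 0.40, and the primase gene prim1 was below the filter.

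Of the nucleotide supply genes on the array, rrm1 and rrm2l rose. Ribonucleotide reductase makes the deoxyribonucleotides for DNA synthesis. It has a large subunit, encoded by rrm1, and a small one, for which rrm2l stood in this group. Another small subunit gene on the array, rrm2b, was put in the wider cell cycle list described below and did not rise. Its log2 change was -0.24 ± 0.14 (SE; limma, adjusted p = 0.423), with mean signals of 178.4 in lesioned and 208.3 in control retinas. The lesioned array of rrm2b was the higher on day 14 alone. Signal of rrm2l was 241.2, 658.8, 698.6, 1180.6 and 594.2 in lesioned retinas on days 2, 3, 5, 7 and 14, against 175.2, 201.5, 151.5, 231.8 and 195.1 in control retinas. All lesioned arrays were above all control arrays, and day 7 was again the highest. The mean was 674.7 ± 335.8 in lesioned and 191.0 ± 30.0 in control retinas (SD over the 5 days, n = 5 arrays each). The log2 change was 1.46 ± 0.19 (SE; limma, adjusted p = 0.000643), or 2.74-fold. Signal of rrm1 was 251.1, 599.2, 560.8, 518.1 and 313.3 in lesioned retinas, against 253.1, 286.7, 330.6, 207.7 and 256.6 in control retinas. On day 2 both arrays were level, and on the 3 middle days the lesioned array was clearly the higher. The log2 change of rrm1 was 0.60 ± 0.15 (SE; limma, adjusted p = 0.0368).

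Of the other nucleotide supply genes, tk1 (thymidine kinase) and dut (dUTPase) were tested and not called, at 0.25 and 0.24. The thymidylate synthase gene tyms was below the filter of the 5-day fit, although its signals of 104.4, 225.5, 215.8, 332.1 and 59.7 in lesioned retinas were all above the 21.3, 42.7, 15.4, 36.3 and 50.9 in control retinas. In the fit without the filter its log2 change was 1.40 (limma, adjusted p = 0.0107). The gap closed on day 14, with log2 ratios of 2.15 on day 7 and 0.12 on day 14.

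The product of uhrf1 binds newly copied, hemimethylated DNA and recruits the maintenance methyltransferase. Signals of uhrf1 were 200.3, 164.8, 185.2, 165.6 and 177.7 in lesioned retinas, against 124.7, 42.1, 52.7, 51.6 and 136.7 in control retinas, so that the lesioned arrays were nearly level and the control arrays split between the blocks. The groups did not overlap, and the log2 change was 0.86 ± 0.15 (SE; limma, adjusted p = 0.00503). A second, dimmer probe set of uhrf1 gave -0.03 and was not tested.

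Of the mitosis genes, 15 were on the array and 7 were tested, with 4 that rose (background 3.62% of 9301 probe sets). The largest change among them was that of kpna2, an importin alpha gene whose product carries proteins into the nucleus and takes part in spindle assembly. Its signals were 194.2, 372.3, 659.3, 736.0 and 347.0 in lesioned retinas on days 2, 3, 5, 7 and 14, against 173.5, 74.7, 75.1, 126.9 and 196.7 in control retinas. Day 2 of the lesioned retinas lay within the range of the control arrays, and the 4 later days lay above it. The log2 change was 1.45 ± 0.26 (SE; limma, adjusted p = 0.00514), or 2.72-fold. Per the array's own identifiers, the probe sets of kpna2 and rrm2l carry the same transcript cluster number. So do those of rrm1 and hmgb2a and those of plk1 and mki67, and whether the probes of these pairs share sequence was not tested.

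The condensin gene smc4 had signals of 174.0, 272.4, 208.2, 343.0 and 209.9 in lesioned retinas, against 183.3, 48.2, 106.1, 96.5 and 159.1 in control retinas. It was slightly lower on day 2 and higher on the other 4 days, with a log2 change of 0.82 ± 0.21 (SE; limma, adjusted p = 0.0381). Survivin, encoded by birc5a, is a subunit of the chromosomal passenger complex. Signals of birc5a were 151.3, 185.5, 252.3, 275.9 and 155.4 in lesioned retinas, against 148.7, 82.4, 113.0, 101.1 and 98.6 in control retinas. They were level on day 2, and every lesioned array was above every control array. The change was 0.66 ± 0.15 (SE; limma, adjusted p = 0.0212). The gene cks1b, for a protein that binds Cdks, had signals of 180.8, 98.2, 128.5, 148.9 and 198.5 in lesioned retinas, against 138.5, 66.2, 70.1, 59.7 and 129.4 in control retinas. Both groups were lower on days 3, 5 and 7, and the log2 change was 0.51 ± 0.13 (SE; limma, adjusted p = 0.0365).

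The 3 tested mitosis genes that were not called differed among themselves. The mitotic cyclin gene ccnb1, whose probe set is of a kind that can share probes with other transcripts, had log2 ratios of 0.15, -0.13, 1.06, 0.96 and 0.62 on days 2, 3, 5, 7 and 14 and a change of 0.53 ± 0.17 (SE; limma, adjusted p = 0.0892). The spindle checkpoint gene bub3, with ratios of 0.22, 0.26, -0.02, 0.32 and 0.03, was at 0.16 ± 0.10 (SE; limma, adjusted p = 0.437). The chromatin gene hmgb2a was at -0.09 ± 0.16 (SE; limma, adjusted p = 0.819), with ratios of -0.21, -0.89, 0.61, 0.10 and -0.07. Its signals were 6661.0, 767.9, 2387.4, 2188.4 and 9035.8 in lesioned retinas, against 7705.5, 1466.2, 1543.8, 2045.3 and 9500.6 in control retinas. They differed far more between the array blocks than between lesioned and control arrays.

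Several widely used markers of division were below the filter of the 5-day fit, which were ccna2, ccnb2, cdk1, aurka, plk1, cdc20, top2a and mki67. Signals of the mitotic kinase gene cdk1 were 97.4, 100.7, 162.1, 270.2 and 151.4 in lesioned retinas, against 70.1, 14.9, 54.7, 76.3 and 90.8 in control retinas. The groups did not overlap, and in the limma fit without the filter its log2 change was 0.88 (adjusted p = 0.0167). The S and G2 cyclin gene ccna2 had 73.6, 101.6, 136.5, 270.7 and 33.2 in lesioned retinas, against 52.6, 53.1, 22.8, 23.1 and 41.7 in control retinas, and on day 14 the lesioned array was the lower. On day 7 alone against the unlesioned retinas, ccna2 had a log2 change of 1.97 and cdk1 one of 1.75, and neither was called. Both passed the filter of that comparison through their high day 7 lesioned array, so these values are a description only. For mki67, which encodes the proliferation antigen Ki-67, the median signal was 110.9 in lesioned and 66.6 in control retinas, and the groups overlapped. The fit without the filter gave mki67 0.45 (limma, adjusted p = 0.143) and the topoisomerase gene top2a 0.23 (limma, adjusted p = 0.63). Other, dimmer probe sets gave 0.02 and 0.01 for mki67 and 0.33, -0.15, 0.03 and 0.08 for top2a. On day 3 the log2 ratio of top2a was -0.52 in the chosen probe set and -1.05 to 0.99 in the others. Without the filter 13 of the 52 genes rose, against 1.72% of all 15502 probe sets. Added were cdk1, cdk2, mcm4, mcm5 and tyms, and birc5a, cks1b, rrm1 and smc4 were lost.

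Leaving out each day in turn, rrm2l, kpna2, ccnd1 and uhrf1 rose in all 5 limma fits. These fits kept the filter of the full fit, which averaged in the lesioned arrays, and uhrf1 was dim in control retinas (mean 81.6). When all probe sets of a gene were averaged, however, uhrf1 fell below the filter and was not tested. The calls of mcm2, mcm3, smc4, birc5a and rrm1 were lost without day 3, 5 or 7, that of pcna without day 5 or 7, that of fen1 without day 2, 3, 5 or 7, and that of cks1b without any day. With the GAPDH 5'/3' ratio as a covariate 0 of the 32 genes passed, against 14 of all 9301 probe sets, and the median log2 change of the 12 genes was 0.44 in place of 0.79.

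**Figure D2:**
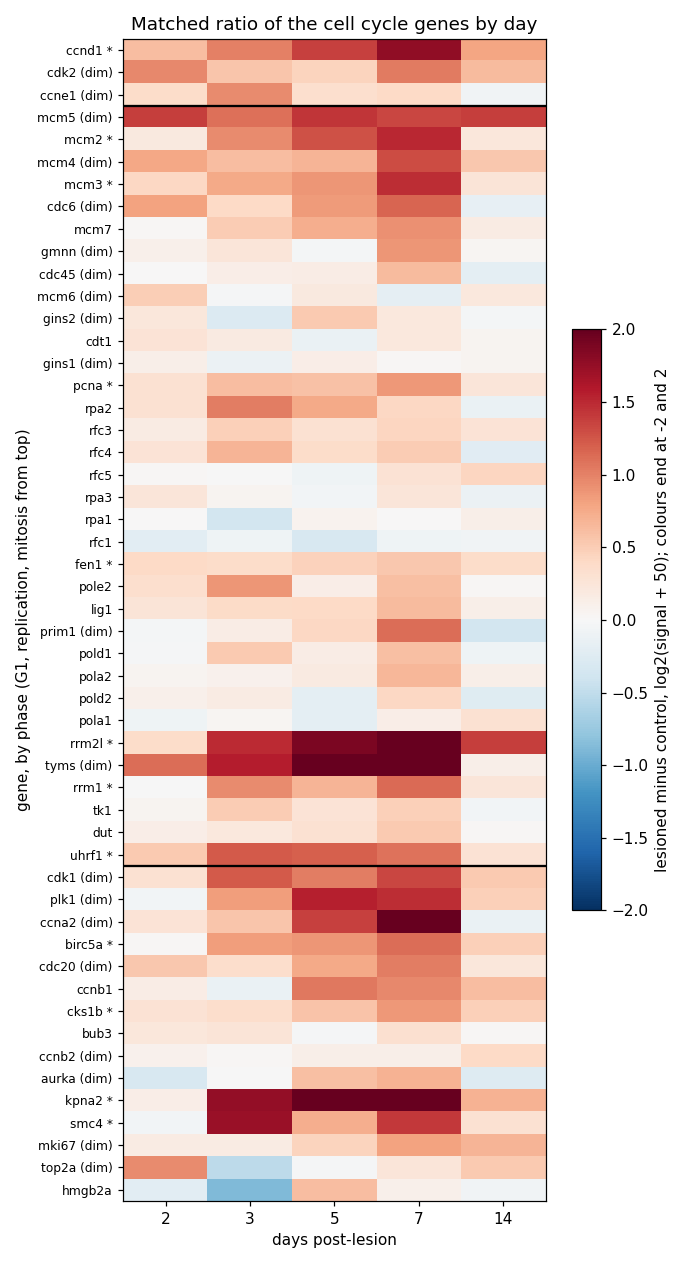
Lesioned minus control log2(signal + 50) for each of the 52 genes (rows, grouped as G1, replication and mitosis) on days 2, 3, 5, 7 and 14 (columns). Colours end at 2 in either direction, an asterisk marks the 12 genes called, and "dim" those below the filter of the 5-day fit. Of the 52 ratios, 50 were above 0 on day 7 and 37 on day 14.

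The second question was when these genes were high. Their median log2 ratio of lesioned over control retina was 0.21, 0.39, 0.45, 0.68 and 0.19 on days 2, 3, 5, 7 and 14, while the median over all probe sets stayed between -0.02 and 0.03. The lesioned array was higher for 43, 42, 43, 50 and 37 of the 52 genes on those days, against 47.1%, 52.1%, 53.4%, 54.8% and 52.7% of all probe sets. On day 7 it was at least 1.5-fold higher for 31, against 7.49%. Past the same fold were 7 genes on day 2 (background 4.28%), 19 on day 3 (9.56%), 22 on day 5 (7.61%) and 7 on day 14 (2.36%). The ratio was highest on day 7 for 29 genes, against 21.0% of all probe sets. Day 2 was the highest for 3 genes (background 14.7%), day 3 for 8 (24.2%), day 5 for 7 (22.7%) and day 14 for 5 (17.3%).

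By phase, the median log2 ratio of the 34 replication genes was 0.21, 0.39, 0.34, 0.60 and 0.11 on days 2, 3, 5, 7 and 14. That of the 15 mitosis genes was 0.15, 0.35, 0.73, 0.96 and 0.47. The 3 G1 genes had 0.62, 0.94, 0.45, 1.04 and 0.63. Replication genes were most often at their lowest ratio on day 14 (18 of 34, against 2704 of all 15502 probe sets). Mitosis genes were most often lowest on day 2 (8 of 15, against 3111 of 15502). With 1 array pair a day this order is a description, and the difference in timing between the phases was not tested. Within replication, the median change over the 5 days was 0.60 for nucleotide supply, 0.36 for licensing and helicase, 0.25 for polymerases and strand joining, and 0.23 for the clamp, its loader and single-strand binding.

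**Figure D3:**
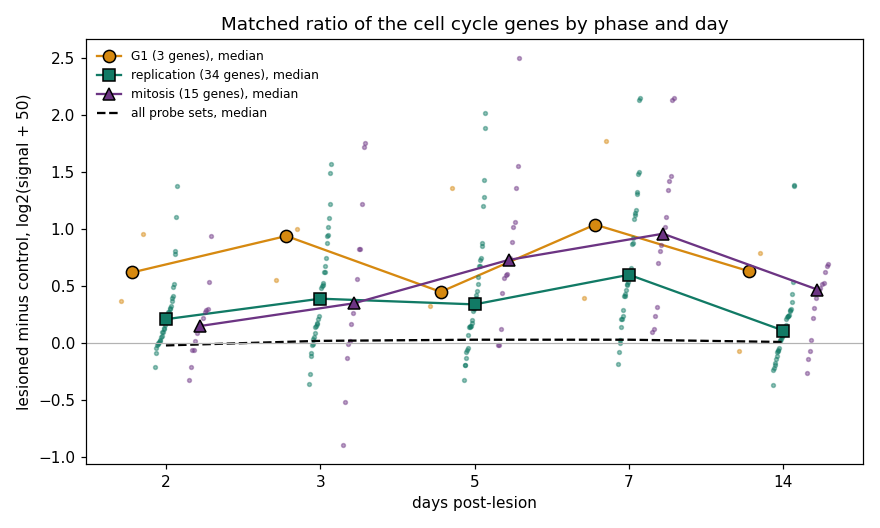
Median lesioned minus control log2(signal + 50) of the G1, replication and mitosis genes on each of the 5 days, with every gene as a small point and the median of all probe sets as a line. The medians of replication (0.60) and mitosis (0.96) genes were highest on day 7, while that of all probe sets was 0.03.

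The genes did not separate lesioned from control retinas equally on every day. The lesioned array was the higher on all 5 days for 24 of the 52 genes, against 8.3% of all probe sets, and on all of days 3, 5 and 7 for 36, against 20.1%. For 10 genes every lesioned array was above every control array, against 0.729% of all probe sets. These were ccnd1, cdk2, mcm4, mcm5, lig1, rrm2l, tyms, uhrf1, cdk1 and birc5a.

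Each lesioned array was also set alone against the 6 unlesioned retinas, with the array block as a term in limma. The lone array was assumed to vary like the unlesioned ones, and the 5 comparisons share those 6 arrays. On day 7, 3 of 38 genes tested rose, against 0.0538% of all probe sets: rrm2l by 2.34 ± 0.24 (SE; limma, adjusted p = 0.0187), kpna2 by 2.49 ± 0.30 (SE; limma, adjusted p = 0.0309) and ccnd1 by 1.94 ± 0.25 (SE; limma, adjusted p = 0.0416), on the log2 scale. On day 5, kpna2 alone rose, of 33 genes tested and against 0.0753% of all probe sets, by 2.34 ± 0.30 (SE; limma, adjusted p = 0.0353). On days 2, 3 and 14, 0 of 29, 30 and 31 genes tested rose, against 0.194%, 0.086% and 0.0% of all probe sets. By limma's unadjusted p under 0.05, the genes that were higher numbered 1 of 29 on day 2 (background 4.1%), 17 of 30 on day 3 (7.71%), 14 of 33 on day 5 (6.35%), 23 of 38 on day 7 (5.75%) and 4 of 31 on day 14 (1.69%). The filter of each day took in that day's lesioned array, so a dim gene could be tested because it was high there, and these counts are a description only. On day 7 the genes tested included prim1, tyms, ccna2, cdk1, aurka and mki67, which the 5-day fit left out. Of these, aurka was also tested on day 14 alone, where its log2 change was 0.0. The calls of days 5 and 7 were lost without the block term, on day 5 also without the control array of day 2, 5 or 14, and on day 7 also without that of day 2 or 5. The day 7 call of ccnd1 was further lost without the control array of day 7 or 14. Without the control array of day 3, tyms and ccna2 joined the 3 genes called on day 7.

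Whether the change was larger on days 3, 5 and 7 than on days 2 and 14 was tested as a difference of differences. At an adjusted p under 0.05 it was met by 0 of 9301 probe sets in limma, and 435 had an unadjusted p under 0.05. Of the 32 genes tested, 11 had a larger change on the middle days at an unadjusted p under 0.05, against 2.81% of all probe sets, and 0 had a smaller one, against 1.87%. The largest difference was that of kpna2, at 1.73 ± 0.27 (SE; limma, adjusted p = 0.0713). Without day 14 it was 2.01 with an adjusted p of 0.0265 in limma. After kpna2 came smc4 at 1.16 ± 0.30, mcm2 at 1.03 ± 0.25 and rrm2l at 0.96 ± 0.29 (SE; limma, adjusted p = 0.767, 0.767 and 0.981). The middle days and the second array block are the same arrays, so day and block cannot be told apart.

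The signals of each group were also compared between these sets of days. For rrm2l and rrm1 the lesioned arrays were higher on the middle days than on days 2 and 14 by 1.0 and 0.88 on the log2 scale, while their control arrays differed by 0.05 and 0.07. For mcm2, mcm3 and uhrf1 the lesioned arrays differed by only 0.09, -0.13 and -0.11, while the control arrays were lower on the middle days, at -0.94, -0.85 and -0.87. In kpna2 both moved, the lesioned arrays by 0.99 and the control arrays by -0.74, and in pcna both were higher, by 0.84 and 0.42. Over the 52 genes the median shift was 0.03 in lesioned and -0.39 in control retinas, and over all probe sets it was -0.20 and -0.23. These shifts run across the array blocks, so a fall in control signal between days and a drop of both arrays with the block cannot be told apart.

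**Figure D4:**
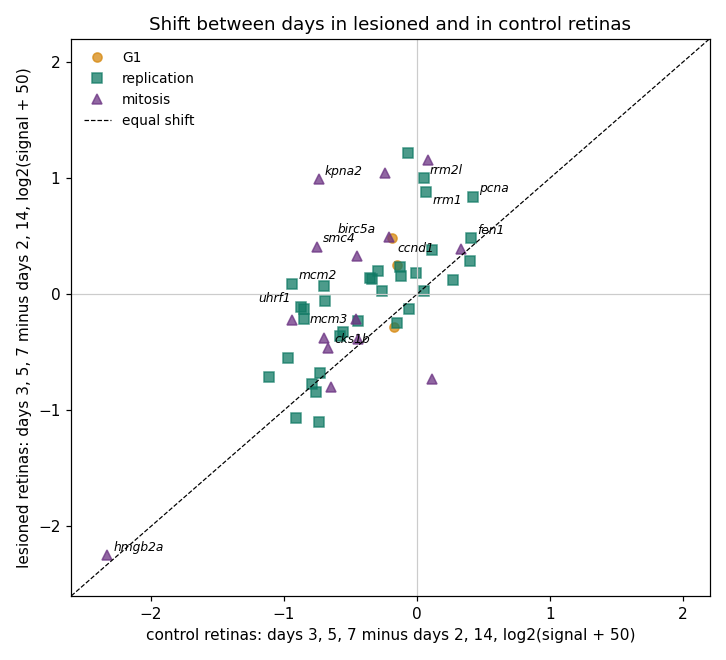
Difference in mean log2(signal + 50) between days 3, 5 and 7 and days 2 and 14 in lesioned retinas (y axis) against the same difference in control retinas (x axis), 1 point per gene, with the dashed line where both are equal. In lesioned arrays rrm2l and rrm1 differed by 1.0 and 0.88, in control arrays mcm2 and uhrf1 differed by -0.94 and -0.87, and hmgb2a differed alike in both (-2.25 and -2.33).

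Markers of other retinal and blood cells were read from the same 5-day fit, in which 3.62% of all probe sets rose and 0.548% fell. Of 25 immune and microglia genes on the array, 13 of the 19 tested rose and 0 fell, with a median log2 ratio of 0.77, 0.95, 0.98, 0.89 and 0.22 on days 2, 3, 5, 7 and 14. Their summed signal was 9278 to 17230 in lesioned and 6797 to 9825 in control retinas. The leukocyte gene lcp1 averaged 258.6 in lesioned and 94.3 in control retinas, and the macrophage receptor gene csf1ra was near the bottom of the scale at 37.2 in lesioned and 20.6 in control retinas. Of 14 Müller glia genes on the array, 4 of the 13 tested rose, with medians of 0.26, 0.33, 0.19, 0.31 and 0.07 on those days. Of 13 erythrocyte genes on the array, 0 of the 6 tested were called, while 4 of the 6 were higher at an unadjusted p under 0.05 (limma; background 10.5%), and their summed signal was 3784 to 21740 in lesioned and 1628 to 12650 in control retinas. Rod genes were lower: 2 of the 9 tested fell, which were guca1b at -0.52 ± 0.10 (SE; limma, adjusted p = 0.00576) and gngt1 at -0.35 ± 0.09 (SE; limma, adjusted p = 0.0422), both of the phototransduction cascade. All 9 rod changes were below 0, with a median of -0.33, 7 were lower at an unadjusted p under 0.05 (background 7.57%), and their medians by day were -0.31, -0.60, -0.11, -0.28 and -0.28. Of 14 cone genes tested, the green opsin gene opn1mw1 alone fell, at -0.51 ± 0.11 (SE; limma, adjusted p = 0.0133), and the median was -0.06. The part of these cells in the changes of the cell cycle genes was not tested.

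A wider list of 179 further cell cycle genes, overlapping none of the 60, had 127 genes on the array and 70 tested. Of the 70, 5 rose (background 3.62%) and 0 fell (0.548%), and by limma's unadjusted p under 0.05, 16 were higher (10.5%) and 4 lower (7.57%). The median log2 change of the 127 was 0.20, with 105 above 0, against 8176 of all 15502 probe sets. The genes that rose were the Myc family gene mych, at 0.85 ± 0.18 (SE; limma, adjusted p = 0.0142), the Myc target gene cdca7a, at 0.85 ± 0.18 (SE; limma, adjusted p = 0.0142), and e2f3, a transcription factor of the G1 to S transition, at 0.69 ± 0.13 (SE; limma, adjusted p = 0.0058). With them rose the histone chaperone gene nasp, at 0.47 ± 0.13 (SE; limma, adjusted p = 0.0488), and the histone variant gene h2az2b, at 0.46 ± 0.11 (SE; limma, adjusted p = 0.0302).

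The last comparison set the brain array against the 6 unlesioned retinas, with the array block as a term, to show how these genes stand in intact tissue. The brain array was assumed to vary like the retinas. Of 28 genes tested, 1 differed, which was hmgb2a, lower in brain by a log2 change of -2.23 ± 0.25 (SE; limma, adjusted p = 0.000228). Over all probe sets 23.6% differed (13.5% higher and 10.1% lower in brain). The median difference of the 52 genes was 0.05, and that of all probe sets was 0.07. Higher in brain were 34 of the 52, against 8852 of all 15502 probe sets.

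HMGB2 is a DNA-bending chromatin protein. Signal of hmgb2a was 1688.1 in brain, against 7269.1, 7705.5 and 9500.6 in the unlesioned retinas of the same array block. In the unlesioned retinas of days 3, 5 and 7, in the other block, it was 1466.2 to 2045.3, a range that holds the brain value. Without the block term the call was lost.

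The next smallest p-values in brain were those of rfc1, lower by -0.67 ± 0.22 (SE; limma, adjusted p = 0.0561), and ccnd1, higher by 0.73 ± 0.25 (SE; limma, adjusted p = 0.0624), and neither passed. Signal of ccnd1 was 412.3 in brain and 180.4 to 278.2 in unlesioned retinas, so the brain value lay between those and the lesioned retinas. Signal of pcna was 1543.5 in brain and 1682.3 to 2486.7 in unlesioned retinas, and that of rrm2l was 210.7 in brain and 151.5 to 231.8 in unlesioned retinas. The true control retina differed from the control retinas of days 2 and 14 by a median of -0.05 on the log2 scale over the 52 genes.

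**Figure D5:**
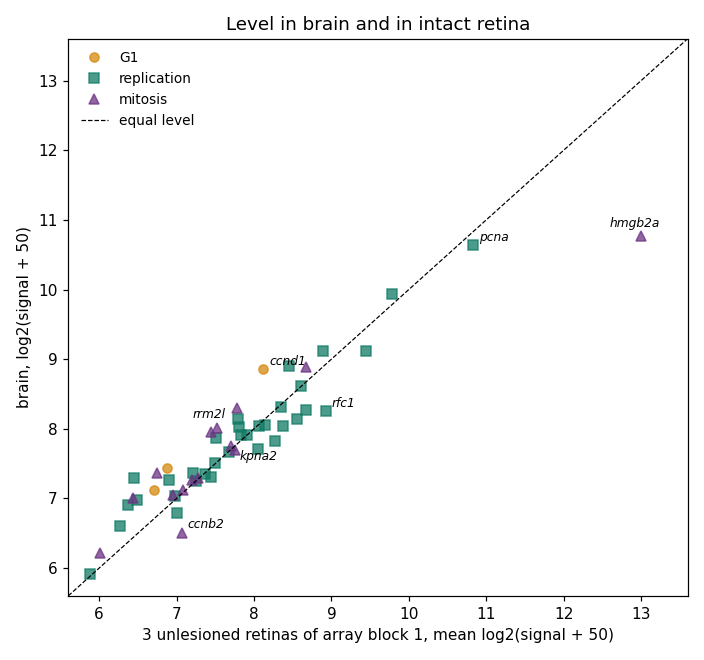
Level of each of the 52 genes in brain (y axis) against the mean of the 3 unlesioned retinas of the same array block (x axis), both as log2(signal + 50), with the dashed line at equal levels. The gene farthest from the line is hmgb2a, which had 1688.1 in brain and 7269.1 to 9500.6 in those retinas.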

How the data were processed

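The authors deposited intensities, 1 signal per probe set, and the submitters' processing notes name GCOS, with version and settings not given in the sources used here. Of 15617 probe sets, 115 manufacturer controls were left out. In the platform annotation 10795 probe sets had 1 gene symbol and were named, 135 had several and 4572 had none listed. Tests used limma 3.58.1 in R 4.3.3 (lmFit, and eBayes with an intensity trend) on log2(signal + 50), after a filter that left out the dimmest probe sets (those below percentile 40 of the averaged group means). P-values were two-sided and adjusted by Benjamini-Hochberg over all probe sets tested, with a threshold of 0.05. Background shares of limma calls are of the probe sets tested in that fit, also where the text says all probe sets. These were 9301, or 15502 without the filter. Shares of ratios, of highest days and of arrays without overlap are of all 15502 probe sets. Tables and plots used Python 3.11.15, pandas 2.3.3 and matplotlib 3.10.9. The fits were also run on simulated data with independent noise on each array. Those data held no effect of the day beyond the array block and no GAPDH difference between paired arrays. The run therefore cannot tell how these act on the calls.

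The day was a block in the lesion fit because the design text gives matched animals. Deviations of same-day arrays from their group means correlated at 0.818, 0.706, 0.666, 0.72 and 0.853 on days 2, 3, 5, 7 and 14. Both arrays of a day share an array block, which adds to these correlations, so they cannot show that animals were matched. Array blocks were taken from the 18 hybridization control probe sets.

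The genes and lists were chosen with earlier results of these data known. Values by array were given for genes called, for the 3 uncalled genes with the smallest p in each phase, and for those called in the other comparisons; other genes were named after their values were seen. Alternatives were other pseudocounts, no filter, quantile normalization, gene means, no block, a GAPDH covariate, subsets of days and each day left out. No sequence or coordinate was used here.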

Additional observations from a re-analysis of the deposited data

How the results depend on the processing

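Over the 5 days 388 of 9301 probe sets and 12 of 32 cell cycle genes passed in limma with arrays paired by day. Without the replicate block, which ignores the pairing, 0 probe sets and 0 genes passed (356 and 16 at an unadjusted p under 0.05). With days 2 and 14 alone, 0 and 0 passed (803 and 4 unadjusted), and with the GAPDH ratio as a covariate, 14 and 0 (674 and 5 unadjusted). Leaving out 1 day gave 170 to 543 probe sets and 4 to 13 genes, fewest genes without day 5 or 7 and most without day 14. The other settings gave 10 to 13 genes. Among them, quantile normalization lost cks1b and smc4. With the mean of all probe sets of a gene, mcm3 and uhrf1 fell below the filter and were not tested. Of the largest changes, that of rrm2l was 1.46 and that of kpna2 1.45, and their order turned with a pseudocount of 16 (1.59 and 1.66) and on days 3, 5 and 7 alone (1.84 and 2.14). On days 3, 5 and 7 alone 12 genes passed, with mcm7 and rpa2 in place of cks1b and fen1. The uncalled change of hmgb2a (-0.09) was 0.16 with the covariate and -0.27 to 0.11 with 1 day left out. The cause of these shifts was not tested.

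For the middle days against days 2 and 14, 2 probe sets passed with a pseudocount of 200, and with 1 day left out 0 to 8 probe sets and 0 to 1 genes (kpna2, without day 14). Without the array block, 0 genes passed on day 5 and 0 on day 7, and with 1 unlesioned array left out 0 to 1 on day 5 and 0 to 5 on day 7. For brain, 2194 probe sets and 1 gene passed, against 1008 and 0 without the array block, 2 genes with a pseudocount of 200 (ccnd1 added) and 3 with quantile normalization (ccnd1 and rfc1 added). The mean of the daily G1 medians, 0.74, was 0.37 with a pseudocount of 200 and 1.11 with the filter, which left ccnd1 alone. Where a count of genes stands in this section without that of all probe sets, it is a description and has no background share. Signals near the bottom of the scale limit the 20 genes left out by the filter most.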
